A study of Mus musculus with 48 samples.

Results

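Genes of ketone body formation and fatty acid oxidation were followed in the mouse small intestine from birth to week 4. The set holds 8 genes, chosen by symbol: Bdh1, Acat1, Cpt1a, Cpt2, Acadm, Acadl, Ehhadh and Pdk4. They are 8 of the 54532 genes in the count table, and all 8 were among the 21986 genes that passed the filter on low counts. The animals were C57Bl/6J mice of both sexes, and the labels name no genetic change and no drug in any group. Whole-thickness pieces of 2 cm were taken from the duodenum just after the stomach outlet and from the ileum just before the caecum, and total RNA was sequenced. The ages were day 0, 2, 4, 6 and 8 and week 2, 3 and 4 after birth, which gives 16 groups of 3 samples. Pups stayed with the dam to day 21 and then received standard chow, so week 3 samples stand at the change of diet. The housing is given as standard germ-free in the labels, and it could not be settled whether the mice lacked microbes.

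Fatty acids enter mitochondria as acylcarnitines, are shortened by rounds of beta-oxidation to acetyl-CoA, and part of that acetyl-CoA can leave the cell as ketone bodies. The liver is the main site of ketone body formation, and the small intestine of suckling rodents is also known to make them while the diet is fat-rich milk. The nuclear receptor PPAR-alpha, which senses fatty acids, is a known activator of many genes of this pathway. Cpt1a makes the acylcarnitines at the outer mitochondrial membrane and is the main control point of entry. Cpt2 turns them back into acyl-CoA inside. Acadl and Acadm carry out the opening step of beta-oxidation on long-chain and medium-chain acyl-CoA, and Ehhadh carries out the middle steps in peroxisomes. Acat1 joins acetyl-CoA units into acetoacetyl-CoA and also acts in ketone body use. Bdh1 interconverts acetoacetate and beta-hydroxybutyrate. Pdk4 switches off pyruvate dehydrogenase and so spares glucose when fat is burned.

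On the GRCm38 build (mm10) of the mouse genome, GENCODE places all 8 as protein-coding genes. Bdh1 (ENSMUSG00000046598) lies on chromosome 16 from 31422280 to 31458901 on the plus strand, and Ehhadh (ENSMUSG00000022853) on the same chromosome from 21761287 to 21787807 on the minus strand. Acat1 (ENSMUSG00000032047) lies on chromosome 9 from 53580522 to 53610382, minus strand. Cpt1a (ENSMUSG00000024900) lies on chromosome 19 from 3322334 to 3385733, plus strand. Cpt2 (ENSMUSG00000028607) lies on chromosome 4 from 107903981 to 107923610, minus strand. Acadm (ENSMUSG00000062908) lies on chromosome 3 from 153922357 to 153944632, minus strand. Acadl (ENSMUSG00000026003) lies on chromosome 1 from 66830839 to 66863277, minus strand. Pdk4 (ENSMUSG00000019577) lies on chromosome 6 from 5483351 to 5496309, minus strand. RefSeq promoter windows were matched for 7 of the 8 genes, with 2 start sites for Bdh1, which makes 8 windows. They were searched on both strands for AGGTCA, the half-site read by many nuclear receptors, PPAR-alpha included. It was present in 2 of the 8 windows, those of Cpt1a and Acadm, against 16.3% of all 32851 windows of 300 bases in the RefSeq table. The pair of half-sites AGGTCANAGGTCA, which contains that half-site, was in 0 of the 8 windows and in 0.0396% of all windows. GGGCGG, the GC box, was in 5 of the 8 windows and in 35.7% of all. Promoters of 3 genes are printed because their genes took different courses at weaning and after: Cpt1a fell at week 3, Acadm rose in the ileum at week 3, and Pdk4 fell most at week 4. Each line gives the 250 bases before the RefSeq start (GRCm38.p6), 5′ to 3′ on the gene's own strand, with the half-site in capitals, here as its reverse complement. The match begins 94 bases before the start of Cpt1a and 249 bases before that of Acadm, and a match is a description of the letters only. The Cpt1a window lies inside the GENCODE gene and the Pdk4 window overlaps it in part, since those models start further upstream.
Cpt1a, chr19:3323051-3323300, plus strand: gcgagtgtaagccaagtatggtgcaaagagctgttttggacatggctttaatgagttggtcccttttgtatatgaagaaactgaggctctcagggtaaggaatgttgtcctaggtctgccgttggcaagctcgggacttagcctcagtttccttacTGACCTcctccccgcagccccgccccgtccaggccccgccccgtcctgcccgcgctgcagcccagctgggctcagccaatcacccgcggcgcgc
Acadm, chr3:153944644-153944893, minus strand: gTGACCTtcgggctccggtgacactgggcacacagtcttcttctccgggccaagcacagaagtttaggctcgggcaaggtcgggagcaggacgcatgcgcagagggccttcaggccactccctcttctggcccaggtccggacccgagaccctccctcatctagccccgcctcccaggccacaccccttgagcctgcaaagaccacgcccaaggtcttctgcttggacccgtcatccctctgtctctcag
Pdk4, chr6:5496279-5496528, minus strand: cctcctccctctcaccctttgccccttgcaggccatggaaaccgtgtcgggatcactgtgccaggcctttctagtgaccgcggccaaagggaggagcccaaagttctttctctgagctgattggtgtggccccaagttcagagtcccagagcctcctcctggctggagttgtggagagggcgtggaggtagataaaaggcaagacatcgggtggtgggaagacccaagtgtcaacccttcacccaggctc

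The day 6 libraries numbered 3 went against their labels. The one labelled duodenum had a mean Spearman correlation across genes of 0.936 with the other day 6 duodenum libraries and 0.988 with those of ileum, and the one labelled ileum had 0.98 with duodenum and 0.935 with ileum. Both were left out, so 46 of 48 libraries were used, with 2 per region at day 6. Total counts ran from 23173093 to 65042327 in duodenum and from 16824021 to 42029626 in ileum, and a library held 43 to 33059 counts of any of the 8 genes. Mitochondrially encoded transcripts took 16.5% to 29.8% of counts in duodenum and 13.1% to 35.2% in ileum. Summed over 5 enterocyte markers (Vil1, Epcam, Cdh1, Fabp2, Alpi), levels were 3652 to 11661 CPM (counts per 1000000 of the library's total after TMM scaling, the trimmed mean of M values) in duodenum and 4345 to 16388 in ileum. Summed over 5 smooth muscle markers (Acta2, Myh11, Tagln, Cnn1, Des) they were 4.24 to 39.3 CPM in duodenum and 10.9 to 158 in ileum, low for pieces labelled whole thickness. Ddx3y, which only males carry, exceeded 1 CPM in 2 to 4 of 6 libraries at day 0, 2 and 4 and week 2 and 3, and in 0 at day 6, day 8 and week 4. Nothing in the labels says that samples of a group came from separate animals, so p-values measure the spread between these samples. In tissue pieces, fewer cells of a type and less RNA per cell cannot be told apart.

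Averaged over ages, all 8 genes were lower in ileum than in duodenum, as 30.2% of all genes were. The regional gap was widest for Pdk4 and Acat1. Between week 2 and week 3, Bdh1, Acat1 and Cpt1a fell in both regions, as 7.9% of all genes did. Acadl fell in duodenum, where 10.6% of all genes fell, and Acadm rose in ileum, where 12.9% rose. Pdk4 fell in both regions between week 3 and week 4, where 4.96% of all genes fell in duodenum and 7.81% in ileum. An edgeR quasi-likelihood fit over all genes was used throughout. Log2 fold changes are given with their standard error (SE), and adjusted p is that of Benjamini and Hochberg over all genes tested, with calls at an adjusted p under 0.05.

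**Figure D1:**
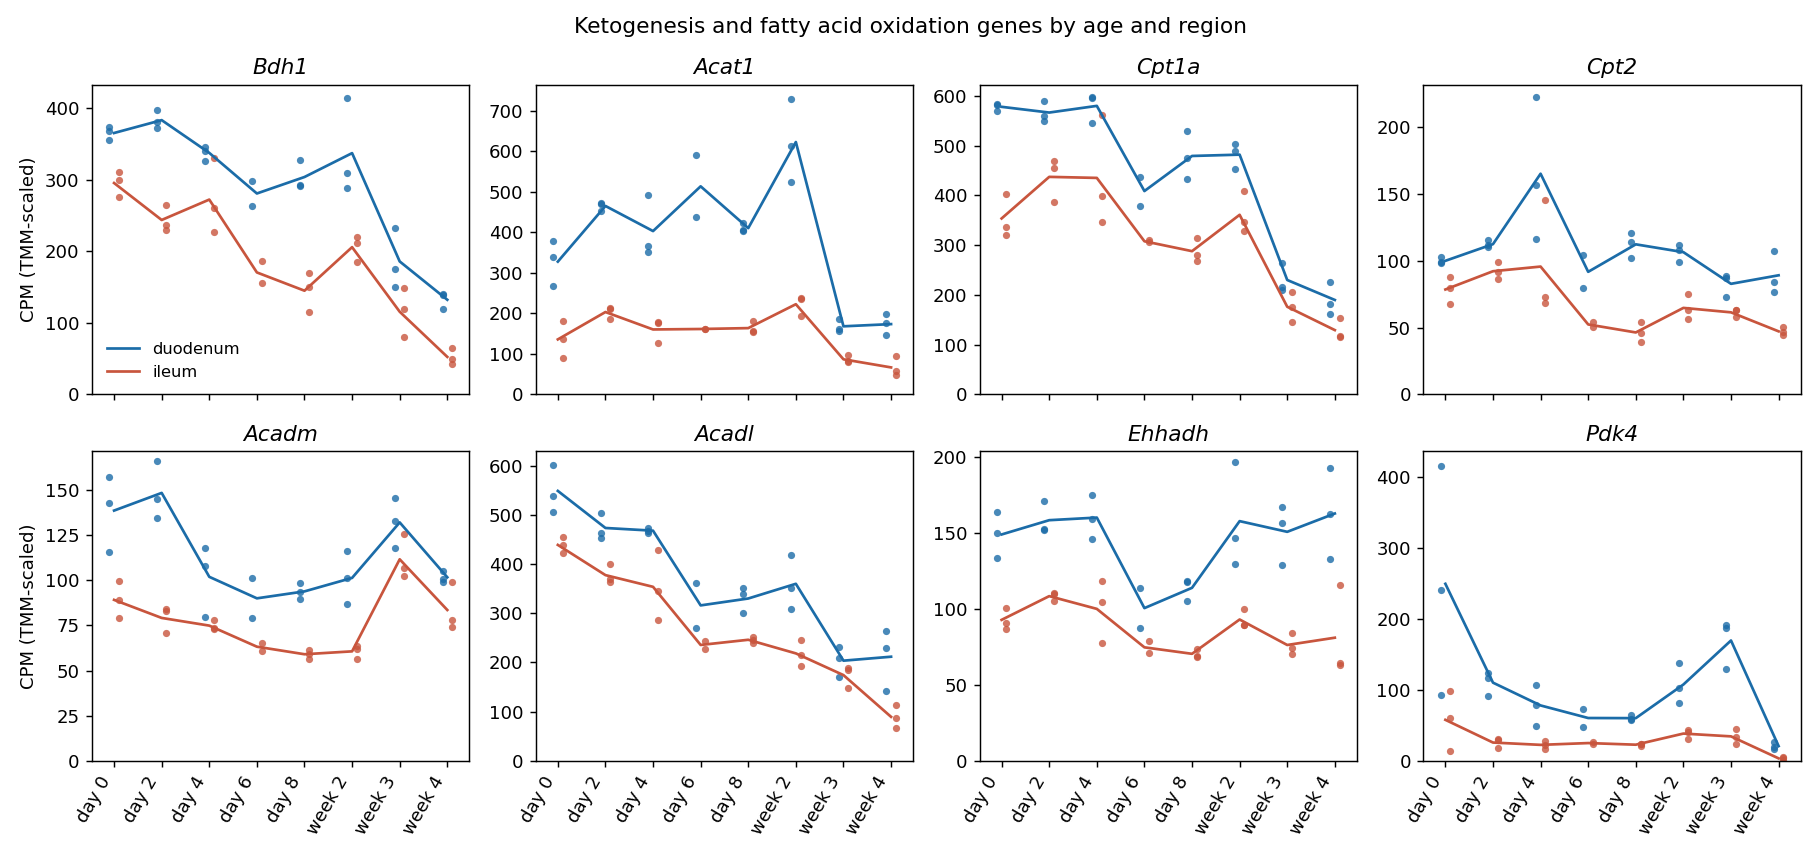
Level of each of the 8 genes (CPM of the TMM-scaled library, linear axis from 0) against age (categories, not to scale), with 1 point per library and a line through the group means, in duodenum (blue) and ileum (red). The ileum means lie below the duodenum means at all 8 ages for every gene, Acat1 drops between week 2 and week 3, and Pdk4 drops between week 3 and week 4.

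Compared per kilobase of exon, with all annotated exons of a gene merged, Acadl was the most abundant of the 8 at birth. Its level in duodenum at day 0 was 274 ± 24.6 CPM per kilobase (SD, n = 3), above Bdh1 at 94.0 ± 2.45 and Acat1 at 87.3 ± 14.8, which did not differ from each other beyond their spread. Cpt1a had 75.7 ± 0.975 and Pdk4 70.9 ± 46.02, where the spread of Pdk4 spans most of the other genes. Ehhadh had 50.0 ± 5.14, Cpt2 41.9 ± 1.01 and Acadm 35.4 ± 5.39 CPM per kilobase. At week 2 the same region had Acadl at 180 ± 27.7 and Acat1 at 166 ± 27.3, within each other's spread. By week 4 Acadl at 106 ± 31.5 and Ehhadh at 54.6 ± 9.99 led, and Pdk4 at 5.87 ± 1.34 was the lowest. In ileum the order at day 0 again began with Acadl at 219 ± 7.90 and Bdh1 at 76.0 ± 4.66 CPM per kilobase. At week 4 it began with Acadl at 44.5 ± 11.8 and Ehhadh at 27.2 ± 10.03, which overlapped, and ended with Pdk4 at 0.957 ± 0.591. The order rests on the exon length used. In CPM, duodenum had Cpt1a at 578 ± 7.45 and Acadl at 549 ± 49.4 at day 0, and Acat1 at 623 ± 103 and Acadl at 360 ± 55.6 at week 2. In ileum at day 0 Acadl at 439 ± 15.8 CPM was still above Cpt1a at 354 ± 44.0.

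Averaged over the 8 ages, the ileum was below the duodenum for 8 of 8 genes, where 30.2% of all genes tested were called lower in ileum and 31.9% higher. The median log2 difference of the 8 was -0.71, against 0.076 over all genes. Pdk4 differed by -1.90 ± 0.17 (adjusted p = 3.01e-11) and Acat1 by -1.33 ± 0.08 (adjusted p = 3.9e-17). Bdh1 and Ehhadh differed by -0.72 each, Cpt2 by -0.70, Acadm by -0.55, Acadl by -0.51 and Cpt1a by -0.50, with SE of 0.05 to 0.07. These 8 calls held in each of the alternatives run, those with 1 library left out included. Over single ages, the fitted difference was below 0 in 64 of 64 gene-by-age comparisons, and 45 of the 64 were called, all lower. Calls numbered 5 of 8 genes at day 0 (3.14% of all genes were called lower), 5 at day 2 (3.97%), 6 at day 4 (15%) and 4 at day 6 (17.5%). From day 8 on they numbered 7 (22.6% of all genes at day 8), then 7 in week 2 samples (11.8%), 4 in those of week 3 (6.9%) and 7 in those of week 4 (13.9%). Pooled over ages, 11.8% of all gene-by-age tests were called lower in ileum, and 13.2% of genes had a fitted difference below 0 at all 8 ages. Acat1 was called at 8 ages, Ehhadh and Pdk4 at 7, Bdh1 and Acadm at 6, Cpt2 at 5, Cpt1a at 4 and Acadl at 2. Of the 45 calls, 24 held in every alternative run. The least stable were Ehhadh at day 2 (called in 3 of 14 alternatives, adjusted p up to 0.194), Cpt1a at day 4 (5 of 13, up to 0.544) and Acadm at day 6 (7 of 12, up to 0.75), and the total was 37 with all 48 libraries. For Acat1 and Ehhadh every ileum library was below every duodenum library at all 8 ages, which held for 1.01% of genes. The other 6 genes had no overlap at 6 or 7 ages, a range that 7.38% of genes reached or passed. Overlap occurred at day 4 for Bdh1, Cpt1a and Cpt2, at week 3 for Acadl, at week 3 and week 4 for Acadm, and at day 0 for Pdk4. With all 48 libraries kept, 0 of the 8 genes and 0 genes in all were called at day 6, and the averaged calls stayed at 8 of 8.

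**Figure D2:**
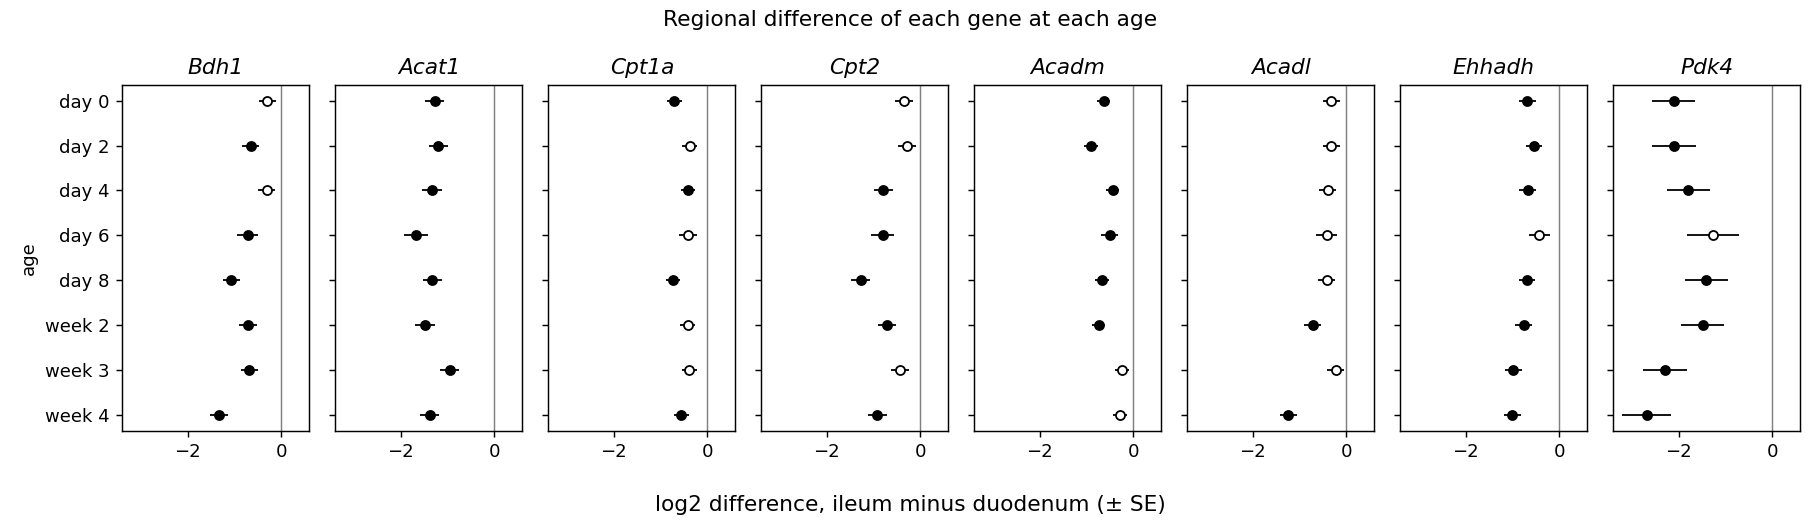
Log2 difference between ileum and duodenum (x axis, ileum minus duodenum, with bars of 1 SE) at each age (y axis) for each of the 8 genes, filled where the adjusted p was under 0.05 in edgeR's quasi-likelihood test. All 64 points lie below 0, and 45 are filled.

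Cell type markers moved with region as well. Averaged over ages, 31.9% of all genes were called higher in ileum and 30.2% lower. All 5 smooth muscle markers were higher in ileum, 4 of 5 pancreatic acinar markers were lower there, and 1 of 5 enterocyte markers was lower and 0 higher. All 4 red blood cell markers were lower in ileum and 3 of 4 leukocyte markers were higher. For enteric neurons and glia, 3 of 4 were higher and 1 lower. Of 5 hepatocyte markers 4 were tested, with 2 lower and 1 higher. Of the lists with fewer calls, the adipocyte list had 2 of 4 markers tested and 1 lower. The skeletal muscle list had 2 of 3 tested and 1 higher. Neither of the 2 for brown adipocytes passed the filter on low counts. The summed enterocyte level had a median of 7524 CPM over 23 duodenum libraries and 6339 over 23 ileum libraries. The summed smooth muscle level had medians of 10.2 and 41.9 CPM, and the summed acinar level (Cpa1, Cela2a, Prss2, Ctrb1, Pnlip) ran from 0.0354 to 369 CPM in duodenum and from 0 to 24.2 in ileum. The summed red blood cell level had medians of 647 and 269 CPM, and the leukocyte level 19.8 and 23.2. Their part in the regional difference was not tested.

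All 8 genes changed with age in each region. The test over the 8 ages called 8 of 8 in duodenum, where 67.4% of all genes were called, and 8 of 8 in ileum, where 58.7% were. The smallest adjusted p-values were those of Cpt1a in duodenum (1.66e-11) and Bdh1 in ileum (8.29e-13). Ehhadh was the weakest in both, at 0.0127 and 0.0251. Its call was lost in duodenum without day 6 library 1 (0.103) and in ileum without day 2 library 2 (0.053), day 2 library 3 (0.0523) or day 8 library 1 (0.0507), and with all 48 libraries (0.0666).

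From week 2 to week 3, the interval that ends at weaning, 4 of 8 genes fell in duodenum and 0 rose, while 10.6% of all genes fell and 7.7% rose. In ileum 3 fell and 1 rose, with 13.9% and 12.9% of all genes. Bdh1, Acat1 and Cpt1a fell in both, which 7.9% of all genes did. The median log2 change of the 8 was -0.59 in duodenum and -0.31 in ileum, against 0.026 and 0.035 over all genes.

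The carnitine shuttle genes took different courses. Cpt1a in duodenum had 504, 453 and 489 CPM at week 2 and 264, 215 and 211 at week 3, and in ileum 346, 328 and 409 and then 206, 176 and 146. The groups did not overlap in either region, and the fall was by 1.07 ± 0.16 on the log2 scale in duodenum (adjusted p = 2.57e-06) and 1.04 ± 0.16 in ileum (adjusted p = 2.81e-06). Before weaning Cpt1a in duodenum had 545 to 598 CPM over day 0 to day 4 and 380 to 530 over day 6 and day 8, which do not overlap. Cpt2 moved less: it had 112, 99.2 and 108 CPM at week 2 and 72.8, 88.8 and 86.9 at week 3 in duodenum. These groups did not overlap, yet the difference of -0.36 ± 0.20 missed the threshold (adjusted p = 0.219). Cpt2 in ileum had 63.4, 56.1 and 74.8 CPM and then 57.8, 63.5 and 63.0, which overlap. Its highest single values came at day 4, with 117, 157 and 223 CPM in duodenum and 68.6, 145 and 73.2 in ileum. In ileum library 2 alone was high, and the other day 4 libraries lay below all 3 of day 2 (99.1, 86.2 and 91.5). Library 2 of ileum at day 4 was also the highest of its group for Cpt1a (562 against 398 and 346) and Bdh1 (330 against 261 and 226), and not for Acadm (73.2 against 73.6 and 77.9).

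Of the acyl-CoA dehydrogenases, Acadl fell in duodenum and Acadm rose in ileum, and in neither region did both pass the test. Acadl in duodenum went from 419, 309 and 351 CPM at week 2 to 230, 209 and 171 at week 3, a fall by 0.82 ± 0.18 on the log2 scale (adjusted p = 0.000786). In ileum Acadl had 216, 194 and 246 CPM and then 188, 185 and 149, which did not overlap, and the difference of -0.33 ± 0.18 missed the threshold (adjusted p = 0.189). Acadl is the long-chain enzyme of the pair. The medium-chain enzyme Acadm in ileum had 56.4, 62.1 and 63.4 CPM at week 2 and 107, 126 and 102 at week 3. Every week 3 library lay above every week 2 library, and Acadm rose by 0.88 ± 0.15 (adjusted p = 7.89e-06). In duodenum Acadm had 116, 86.8 and 101 CPM and then 133, 145 and 118, also without overlap. That difference of 0.38 ± 0.14 missed the threshold (adjusted p = 0.0598). It passed in 5 of 14 alternatives, among them those without week 2 library 1 (0.0337) or week 3 library 3 (0.0442). The difference between regions in this step was called for neither gene (adjusted p = 0.328 for Acadm and 0.538 for Acadl).

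Ehhadh, the peroxisomal enzyme, was not called at this step. It had 197, 130 and 147 CPM at week 2 and 157, 167 and 129 at week 3 in duodenum, and 89.6, 89.6 and 100 and then 74.5, 84.2 and 70.2 in ileum. The duodenum groups overlapped and the ileum groups did not, with differences of -0.07 ± 0.18 and -0.29 ± 0.18 on the log2 scale.

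Of the ketone body enzymes, Acat1 made the largest fall of the 8 genes at week 3. It had 730, 526 and 614 CPM at week 2 and 160, 187 and 156 at week 3 in duodenum, and 239, 194 and 235 and then 83.2, 97.0 and 79.6 in ileum. The lowest week 2 library was above the highest week 3 library in each region, and Acat1 fell by 1.89 ± 0.21 in duodenum (adjusted p = 5.75e-09) and 1.36 ± 0.21 in ileum (adjusted p = 2.12e-06). Bdh1 had 414, 288 and 310 CPM and then 232, 150 and 175 in duodenum, and 212, 186 and 220 and then 148, 119 and 79.6 in ileum. Bdh1 fell by 0.86 ± 0.18 (adjusted p = 0.000522) and 0.83 ± 0.18 (adjusted p = 0.000499), with no overlap in either region.

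Pdk4 had 138, 81.8 and 102 CPM at week 2 and 187, 192 and 129 at week 3 in duodenum, and 40.8, 30.3 and 43.6 and then 24.2, 45.3 and 33.4 in ileum. The groups overlapped in both regions and neither difference was called. The difference between regions in the week 3 step itself was called for 0 of the 8 genes, where 1.38% of all genes were called by edgeR's test. At an unadjusted p under 0.05 it was 1 gene, Acadm (log2 difference 0.50 ± 0.20, ileum minus duodenum), and DESeq2 called 0.

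**Figure D3:**
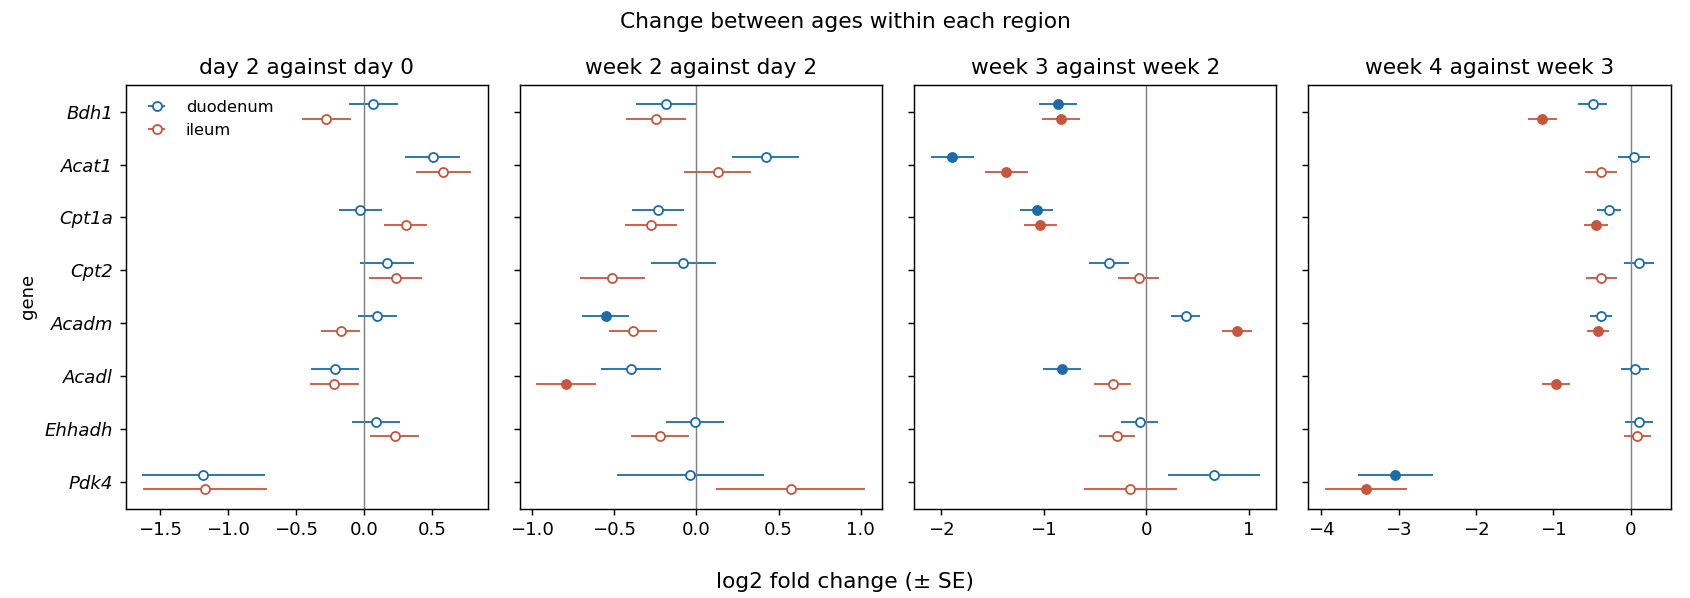
Log2 fold change of each of the 8 genes (x axis, bars of 1 SE, scale differs between panels) for 4 steps of age in duodenum (blue) and ileum (red), filled where edgeR's adjusted p was under 0.05. At week 3 against week 2, Bdh1, Acat1 and Cpt1a lie below 0 in both regions and Acadm lies above 0, and Pdk4 stands apart at week 4 against week 3.

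Between week 3 and week 4, when the mice ate chow, Pdk4 alone fell in duodenum (1 of 8, where 4.96% of all genes fell) and 5 of 8 genes fell in ileum (7.81% of all genes). Pdk4 in duodenum went from 187, 192 and 129 CPM to 18.9, 17.0 and 25.9, and in ileum from 24.2, 45.3 and 33.4 to 3.26, 1.33 and 5.48. Each week 4 library was below each week 3 library of its region by a wide margin. Pdk4 fell by 3.04 ± 0.48 on the log2 scale in duodenum (adjusted p = 2.9e-05) and by 3.42 ± 0.53 in ileum (adjusted p = 1.15e-05). Over the alternatives these values ran from -3.23 to -2.91 and from -4.01 to -2.98, all called. Bdh1 in ileum went from 148, 119 and 79.6 to 64.9, 50.1 and 42.2 CPM, a fall by 1.14 ± 0.19 (adjusted p = 1.56e-05). Acadl in ileum went from 188, 185 and 149 to 66.8, 114 and 86.9 CPM, a fall by 0.96 ± 0.18 (adjusted p = 0.000158). In duodenum the same genes had adjusted p = 0.0695 for Bdh1 and 0.881 for Acadl, and Bdh1 was called there without week 3 library 2 (0.0337). The ileal calls of Cpt1a (-0.45 ± 0.16, adjusted p = 0.0496) and Acadm (-0.42 ± 0.14, adjusted p = 0.0415) were lost in 8 and 9 of 14 alternatives. Without ileum week 3 library 1 they were at 0.3 and 0.0692, without week 3 library 2 at 0.101 and 0.2, and without week 4 library 3 at 0.109 and 0.114. Cpt1a was also lost without week 4 library 1 (0.138) and Acadm without week 4 library 2 (0.167), while Acat1 was called without week 4 library 1 (0.0131).

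Other measures changed at weaning and at week 4 too. From week 2 to week 3, 7.7% of all genes rose and 10.6% fell in duodenum, and 12.9% and 13.9% in ileum. Of the enterocyte markers 2 of 5 rose and 0 fell in each region. Their summed mean went from 6924 to 9960 CPM in duodenum and from 5426 to 13730 in ileum. Of the hepatocyte list (Alb, Ttr, Apoh, Serpina1a, Ahsg), 4 of 5 were tested and 2 fell in each region. Its summed mean went from 213 to 16.1 CPM in duodenum and from 71.0 to 3.85 in ileum. Alb stayed at or under 1.22 CPM, Apoh at or under 0.872 and Ahsg at or under 0.333 in every library. Ttr reached 111 CPM in duodenum and 168 in ileum, and Serpina1a reached 224 and 40.6. At week 4 the leukocyte list (Ptprc, Cd3e, Cd79a, Itgam) had 3 of 4 genes higher than at week 3 in duodenum and 4 of 4 in ileum, with summed means of 64.0 and 203 CPM against 22.4 and 23.3. Of 21986 genes tested, 2794 were called at that step in duodenum, 61% of these higher. In ileum 3534 were called, 51.4% of these higher. Mean mitochondrial share in ileum was 15.8% at week 3 and 28.1% at week 4. Their part in these results was not tested. Week 4 held no library with Ddx3y above 1 CPM. With a sex index added to the fit, Pdk4 had -3.19 in duodenum and -3.64 in ileum at week 4 against week 3. A sex effect particular to week 4 cannot be told apart from age in these libraries and was not tested.

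Week 4 against day 0 spans the whole period. In duodenum 6 of 8 genes fell and 0 rose, where 20.1% of all genes fell and 20.4% rose, and in ileum 6 fell and 0 rose, where 20.4% fell and 21.5% rose. The median log2 change was -1.15 and -1.24, against -0.019 and 0.078 over all genes. Bdh1, Acat1, Cpt1a, Acadl and Pdk4 fell in both regions, as 13.4% of all genes did. Pdk4 had 92.1, 240 and 415 CPM at day 0 in duodenum and 14.005, 60.7 and 98.1 in ileum, a wide spread in both, and all 6 libraries were above those of week 4. It fell by 3.60 ± 0.50 (adjusted p = 3.53e-07) and 4.17 ± 0.54 (adjusted p = 9.08e-08). Bdh1 had 368, 374 and 355 CPM at day 0 in duodenum and 138, 119 and 140 at week 4, and in ileum 311, 300 and 276 and then 64.9, 50.1 and 42.2. It fell by 1.47 ± 0.19 and 2.50 ± 0.19. Acadl had 505, 538 and 602 CPM and then 229, 142 and 264 in duodenum, and 423, 455 and 438 and then 66.8, 114 and 86.9 in ileum, with falls by 1.38 ± 0.18 and 2.30 ± 0.19. For both genes the fall in ileum was the larger. Cpt1a had log2 changes of -1.61 ± 0.16 in duodenum and -1.45 ± 0.16 in ileum, and Acat1 of -0.92 ± 0.21 and -1.03 ± 0.21, all called.

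The other 3 genes kept more of their level. Cpt2 fell in ileum by 0.73 ± 0.20 (adjusted p = 0.00286), from 88.1, 80.0 and 67.6 CPM to 50.3, 47.1 and 44.2, and had -0.17 ± 0.20 in duodenum. Acadm fell in duodenum by 0.45 ± 0.14 (adjusted p = 0.0117), from 116, 143 and 157 CPM to 101, 105 and 99.0. That call was lost without day 0 library 3 (0.149), week 4 library 1 (0.0587) or week 4 library 3 (0.0662). Acadm in ileum had 78.9, 99.6 and 89.0 CPM at day 0 and 99.1, 73.8 and 77.8 at week 4, which overlap. Ehhadh had 0.13 ± 0.18 in duodenum and -0.20 ± 0.18 in ileum, and neither passed the threshold. In ileum its week 4 libraries read 116, 64.5 and 63.1 CPM, and without the highest of them (library 1) Ehhadh was called lower (-0.59, adjusted p = 0.00628).

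Few calls were made between the earlier ages. From day 0 to day 2, edgeR called 0 of 8 genes in duodenum (6.8% of all genes called) and 0 of 8 in ileum (5.2%), with 2 genes at an unadjusted p under 0.05 in each, Acat1 and Pdk4. DESeq2 called 0 in duodenum and 1 in ileum. Leaving out 1 library brought calls: Pdk4 without duodenum day 0 library 1 (-1.58, adjusted p = 0.0303), Pdk4 without ileum day 0 library 1 (-1.63, adjusted p = 0.0135) and Acat1 without ileum day 0 library 2 (0.84, adjusted p = 0.0219). From day 2 to week 2 only Acadm fell in duodenum (1 of 8, where 5.24% of all genes fell) and only Acadl in ileum (1 of 8, where 1.82% fell). Acadm had 166, 134 and 145 CPM at day 2 and 116, 86.8 and 101 at week 2, a fall by 0.55 ± 0.14 (adjusted p = 0.0101). Its call was lost without day 2 library 1 (0.0821) or week 2 library 2 (0.104). Acadl in ileum had 400, 363 and 369 CPM at day 2 and 216, 194 and 246 at week 2, a fall by 0.79 ± 0.18 (adjusted p = 0.00533), which missed the threshold without week 2 library 2 (0.0546). Groups did not overlap in either case.

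Whether the course over age differed between the regions was tested by the interaction of region and age. It was called for 2 of 8 genes, Bdh1 (adjusted p = 0.0273) and Acadl (adjusted p = 0.0393), where 22.4% of all genes were called. The ileum minus duodenum difference of Bdh1 was -0.31 ± 0.18 at day 0 and -1.34 ± 0.19 at week 4. That of Acadl was -0.32 ± 0.18 at day 0, -0.22 ± 0.18 at week 3 and -1.24 ± 0.18 at week 4. Both genes thus had their widest gap at week 4. So did Ehhadh (-1.01 ± 0.18) and Pdk4 (-2.69 ± 0.52), for which the interaction was not called (adjusted p = 0.501 and 0.562). Of 53 alternatives, 50 kept the interaction call of Bdh1 and 32 that of Acadl. Bdh1 was lost without duodenum week 4 library 3 (0.0504), without ileum week 4 library 3 (0.0606) and with all 48 libraries (0.101). Acadl was lost with the replicate number as a block (0.0964), with no filter on low counts (0.0642), with all 48 libraries (0.0883) and in 18 fits with 1 library left out. The adjusted p was 0.117 without ileum week 4 library 1 and 0.1 without duodenum week 4 library 3, and between 0.0508 and 0.061 in the others. Those were duodenum day 0 libraries 1 and 2, day 2 libraries 1, 2 and 3, week 3 library 3 and week 4 library 1, and ileum day 0 library 2, day 2 libraries 1 and 3, day 6 libraries 1 and 2, week 2 libraries 1 and 2, and week 3 libraries 1 and 2. Cpt2 was called without any 1 of duodenum day 4 libraries 1 (0.028) and 3 (0.0294) and ileum day 4 libraries 1 (0.0487) and 2 (0.00351), and Acadm without duodenum day 4 library 3 (0.0491).

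The rest of the pathway was read from 8 lists of 87 further genes, of which 85 were tested. At week 3 against week 2, 10.6% of all genes fell and 7.7% rose in duodenum, and 13.9% fell and 12.9% rose in ileum. The 18 further genes of mitochondrial beta-oxidation then had 10 lower and 0 higher in duodenum and 8 lower and 1 higher in ileum. Their medians were -0.58 and -0.32, close to those of the 8 genes. Acot2, a thioesterase that releases fatty acids from CoA, fell most, by 1.61 ± 0.17 and 1.65 ± 0.17. Acaa2, the thiolase that ends each round, fell by 0.84 ± 0.24 and 0.96 ± 0.24, and Hadhb, a subunit of the trifunctional protein, by 0.90 ± 0.17 and 0.60 ± 0.17. The exception was Etfa, an electron carrier subunit, which rose in ileum by 0.40 ± 0.15. Averaged over ages, 16 of the 18 were lower in ileum and 1, Acad9, was higher, against 30.2% and 31.9% of all genes.

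The list of ketone body genes held 4 further genes. At week 3 it had 1 lower and 1 higher in duodenum and 0 lower and 1 higher in ileum. Over all genes 10.6% were lower and 7.7% higher in duodenum, and 13.9% and 12.9% in ileum. Oxct1, which works in ketone body use and not in their formation, rose by 1.52 ± 0.23 and 0.71 ± 0.22 on the log2 scale. Its level in duodenum was 16.8 ± 4.00 CPM at week 2, 48.2 ± 3.23 at week 3 and 154 ± 31.5 at week 4 (SD, n = 3). The gene that fell in duodenum was Bdh2 (-2.62 ± 0.40), with -0.50 ± 0.48 in ileum.

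The 11 genes of fatty acid activation and the carnitine shuttle split at week 3. There were 3 lower and 2 higher in duodenum (10.6% and 7.7% of all genes) and 4 lower and 3 higher in ileum (13.9% and 12.9%). Slc25a20, the carrier that passes acylcarnitines between Cpt1a and Cpt2, fell by 1.11 ± 0.17 and 1.36 ± 0.18. The acyl-CoA synthetase Acsl3 fell by 1.47 ± 0.29 and 1.14 ± 0.28. Cpt1b, the muscle counterpart of Cpt1a, rose by 1.76 ± 0.41 and 1.20 ± 0.40, as did the fatty acid transporter Slc27a4, by 0.79 ± 0.25 and 0.89 ± 0.25.

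The 16 peroxisomal genes were also divided at week 3. They had 3 lower and 3 higher in duodenum (10.6% and 7.7% of all genes) and 4 lower and 5 higher in ileum (13.9% and 12.9%). Acot3, a peroxisomal thioesterase, fell by 3.46 ± 0.28 and 3.87 ± 0.30, and Acot4 by 1.22 ± 0.18 and 0.87 ± 0.18. Abcd3, the importer of acyl-CoA, rose by 1.16 ± 0.16 and 1.82 ± 0.16, and the thiolase Acaa1a by 1.12 ± 0.22 and 1.23 ± 0.22. Acot1, Acot2, Acot3 and Acot4 are close relatives in sequence, so their counts depend on how reads were shared among them. From day 0 to week 4 the same list had 8 higher and 4 lower in duodenum, and 3 and 3 in ileum. The mitochondrial list then had 1 higher and 8 lower in duodenum and 0 higher and 13 lower in ileum. Over all genes 20.4% were higher and 20.1% lower in duodenum, and 21.5% and 20.4% in ileum, so the ileal peroxisomal counts were near the background. No test compared the lists.

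**Figure D4:**
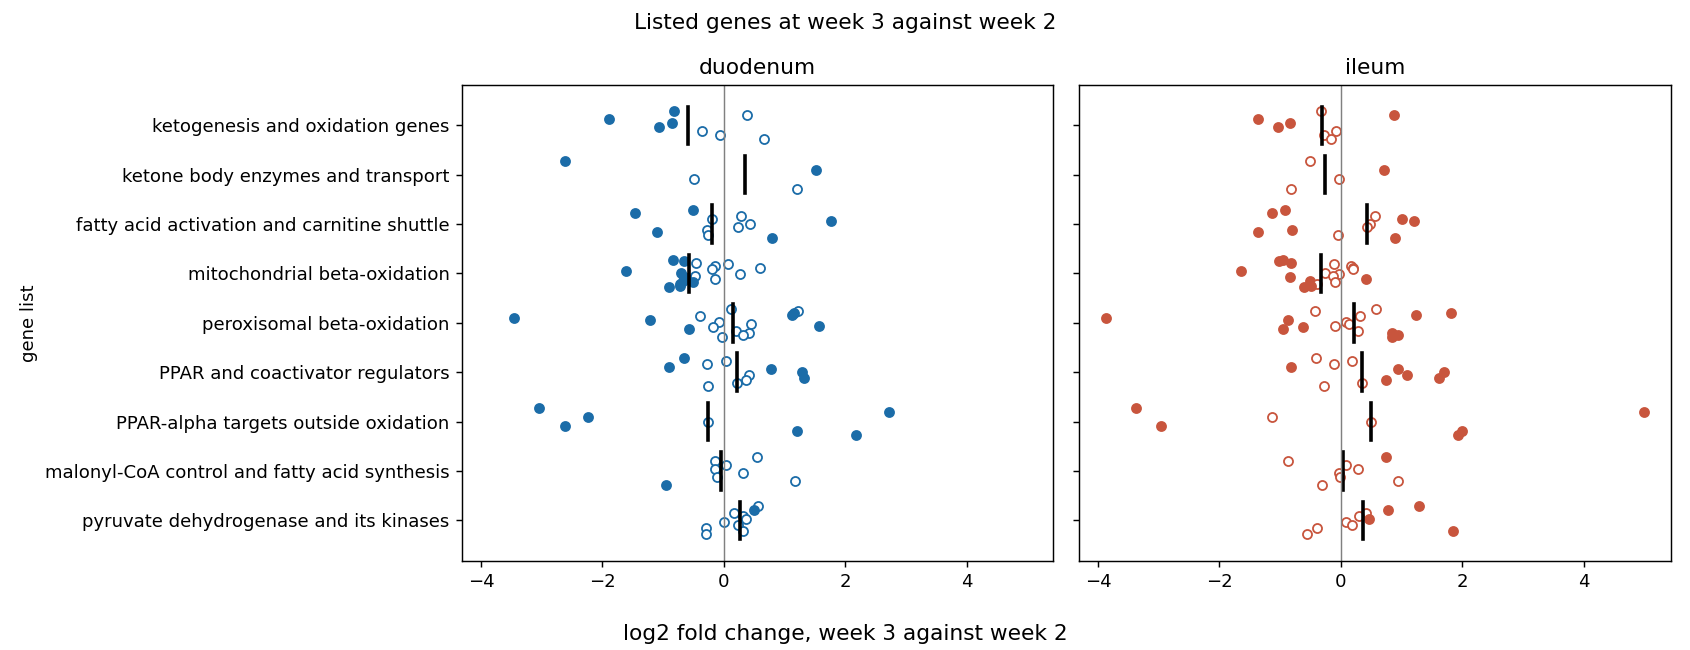
Log2 fold change from week 2 to week 3 (x axis) of the 8 genes and of 8 lists of related genes (y axis) in duodenum (left) and ileum (right), with 1 point per gene tested, filled where edgeR's adjusted p was under 0.05, and a black bar at the list's median. The 8 genes and the mitochondrial beta-oxidation list have medians below 0 in both regions.

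Of 11 regulators of the pathway, PPAR factors and their partners, 3 rose and 2 fell at week 3 in duodenum, where 7.7% of all genes rose and 10.6% fell. In ileum 5 rose and 1 fell, with 12.9% and 13.9% of all genes. Ppard rose by 1.29 ± 0.20 and 1.69 ± 0.20, the coactivator Ppargc1a by 1.32 ± 0.29 and 1.61 ± 0.30, and Ppara by 0.77 ± 0.21 and 0.94 ± 0.21. Nr1h4, the bile acid receptor, fell by 0.91 ± 0.20 and 0.82 ± 0.20. Of the 7 tested PPAR-alpha targets outside oxidation, 3 rose and 3 fell in duodenum and 3 rose and 2 fell in ileum. Angptl4, an inhibitor of lipoprotein lipase, rose by 2.72 ± 0.41 and 4.98 ± 0.46, from 6.23 ± 1.47 to 40.9 ± 9.16 CPM in duodenum and from 2.74 ± 0.527 to 86.4 ± 16.6 in ileum. Plin2, which coats lipid droplets, fell by 2.61 ± 0.20 and 2.97 ± 0.20, and Acot1 by 3.04 ± 0.29 and 3.38 ± 0.30. The listed targets had calls in both directions in each region, and the part of PPAR-alpha in these changes was not tested.

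In the list of malonyl-CoA control and fatty acid synthesis 1 of 8 genes was called at week 3 in each region. Srebf1 was lower in duodenum (-0.95 ± 0.20) and Acaca higher in ileum (0.74 ± 0.21). Over all genes 10.6% were lower in duodenum and 12.9% higher in ileum, so these counts were near the background. The list of pyruvate dehydrogenase, the complex that Pdk4 inhibits, and its other kinases and phosphatases had 1 of 10 genes higher in duodenum, Dld (0.49 ± 0.14). That count in duodenum was near the 7.7% of all genes that rose. In ileum 4 of 10 were higher and 0 lower, where 12.9% of all genes rose and 13.9% fell. The 4 were Pdp1, a phosphatase that switches the complex on (1.84 ± 0.32), Dlat (1.29 ± 0.22), Dld (0.77 ± 0.14) and Pdhx (0.47 ± 0.15).

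The 8 genes did not form a single pattern. Over the 23 libraries of a region, log2 CPM of Bdh1 and Cpt1a correlated with Pearson's r of 0.968 in duodenum and 0.926 in ileum, Cpt1a and Acadl with 0.928 and 0.898, and Bdh1 and Acadl with 0.889 and 0.923. Acadm stood apart from Cpt1a, with 0.104 and -0.385, from Acadl, with 0.289 and -0.126, and from Acat1, with -0.102 and -0.472. Its values were also low against Bdh1 (0.197 and -0.155) and Cpt2 (-0.196 and 0.208). In duodenum Acadm was closer to Pdk4 (0.68) and Ehhadh (0.562), and in ileum these values were 0.0427 and 0.172. Ehhadh and Cpt1a had -0.0336 in duodenum and 0.542 in ileum. The libraries share ages and depth, so these values are descriptions. Among the 12356 named genes whose log2 CPM averaged 1 or more, the closest over 46 libraries were, for Bdh1, Acaa2 (0.959), Pfkm (0.937) and 1700037H04Rik (0.934), and for Cpt1a, Cldn2 (0.957), Acot1 (0.952) and E2f8 (0.952). Acadl was closest to 1700037H04Rik (0.942), Acaa2 (0.935) and Bdh1 (0.92). Acat1 was closest to Eif1ad (0.923), Aqp8 (0.916) and Cym (0.911), and Cpt2 to Ube2v1 (0.915), Got2 (0.9) and Acadvl (0.9). Ehhadh was closest to Hsd17b11 (0.916), Ephx2 (0.89) and Isca1 (0.879), and Acadm to Scp2 (0.896), N4bp2l1 (0.876) and Bpnt1 (0.858). Pdk4 had the lowest leading values, with Rab30 (0.826), Cdip1 (0.812) and Apoc2 (0.807).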

How the data were processed

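Estimated counts per gene for 48 samples were deposited by the authors; the submitters' processing notes name STAR 2.6.1d, Salmon 0.14.2, DESeq2 1.30.1 and mm10, with no role or order. They were whole numbers already, and estimated counts of near-identical genes depend on the model that shares reads among them. The authors' deposited normalized tables hold a scaled signal, in each of their 40 columns the estimated count times 1 factor, and served only for gene symbols. All tests used edgeR 4.0.16 (R 4.3.3) on the counts: filterByExpr on the 16 groups, TMM scaling and a robust quasi-likelihood fit of 1 mean per group, with no covariate. Standard errors are the log2 fold change over the square root of F. Log2 CPM used a prior count of 2. The procedure was also run on simulated counts with some genes changed in 1 group, the other groups alike and libraries independent. That setting is simpler than these data, and no result rests on it. The genes, lists and the choice to leave out the day 6 libraries numbered 3 were made with earlier results of these data known. By rule, all 8 genes are named, up to 4 called genes per further list with the largest change at week 3 or at odds with their list, and the 3 genes most correlated with each. Alternatives were DESeq2 1.42.0, RLE size factors, no filter, all 48 samples, day 4 also left out, a sex index, a replicate block, only the compared groups, and each library left out.
Same-numbered duodenum and ileum samples of an age were compared for shared deviations from their group means. Gene coordinates are from GENCODE M21 and promoters from RefSeq GRCm38.p6; Acat1 has no window in that table. Some genes related to this pathway are not reported here.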

Additional observations from a re-analysis of the deposited data

Results flagged for a closer look

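The course over age differed between duodenum and ileum for Bdh1 by the interaction test of edgeR, with an adjusted p of 0.0273. Of the 8 genes 2 were called, near the 22.4% of all genes called, and 0 with all 48 samples. Bdh1 was lower in ileum at all 8 ages, and the log2 difference was -0.31 at day 0 and -1.34 at week 4. The same test gave an adjusted p of 0.0393 for Acadl, whose difference was -0.22 at week 3 and -1.24 at week 4, and which had 0.0964 with the replicate number as a block. Of 53 alternatives, 50 kept the call of Bdh1 and 32 that of Acadl. At week 4 the summed leukocyte markers had a mean of 203 CPM in ileum and 64.0 in duodenum, and their part in these differences was not tested.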

How the results depend on the processing

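Of 3496 gene-level repeats, 3322 left the status of the gene unchanged, whether called or not called, 117 lost a call and 57 gained one. None reversed direction past the threshold, where the tests over all ages and the interaction have no direction to reverse. Scaling by RLE size factors or DESeq2 moved the median of all genes by at most 0.0795 (log2). Genes called of 8 moved by more than 1.5 times as follows. With only the compared groups in the fit they were 1 for duodenum day 2 against day 0, 2 for duodenum week 2 against day 2, 3 for ileum week 2 against day 2 and 3 for ileum week 4 against week 3. Ileum week 4 against week 3 also had 3 with no filter, with all 48 samples and with the replicate block. With day 4 also left out the counts were 3 for duodenum week 4 against week 3, 1 for ileum day 2 against day 0, 3 for ileum week 2 against day 2 and 4 for the interaction, which had 1 with no filter and 0 with all 48. Duodenum week 4 against week 3 had 2 with the sex index and 2 with DESeq2, which gave 1 for ileum day 2 against day 0. Smaller moves were 5 or 6 for duodenum week 3 against week 2 (5 with RLE size factors, without day 4 and with DESeq2, 6 with only the compared groups), 5 for duodenum week 4 against day 0 with no filter, and 7 for age in ileum and 37 for single ages with all 48. The cause was not tested.

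With 1 library left out, the counts ran in duodenum from 7 to 8 for age, 0 to 1 for day 2 against day 0, 0 to 1 for week 2 against day 2, 4 to 5 for week 3, 1 to 2 for week 4 against week 3 and 5 to 6 for week 4 against day 0. In ileum they ran from 7 to 8, 0 to 1, 0 to 1, 4 to 4, 3 to 5 and 6 to 7. The averaged regional count stayed at 8, the single-age count ran from 42 to 46, the interaction from 0 to 4 and the regional difference in the week 3 step stayed at 0.

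Over all genes, the interaction was called for 4930, against 947 with all 48 samples and 9512 without day 4. Duodenum day 2 against day 0 had 1495, then 869 and 2613, and 3607 with only the compared groups. Duodenum week 2 against day 2 had 2014, then 1016, 3300 and 4260. Ileum day 2 against day 0 had 1143, then 541 and 2518, and 1731 with DESeq2. Ileum week 2 against day 2 had 991, then 589, 1690 and, with only the compared groups, 3478. Duodenum week 4 against week 3 had 2794 and 4568 without day 4, and ileum week 4 against week 3 had 3534 and 1527 with only the compared groups. The regional difference in the week 3 step had 303, then 113 with all 48 samples, 672 without day 4, 568 with DESeq2 and 584 with only the compared groups. Ileum against duodenum at single ages moved too. With all 48 samples, day 0 went from 1342 to 578, day 2 from 1762 to 1024, day 4 from 5855 to 3851, day 6 from 7762 to 0, week 2 from 4922 to 2561 and week 3 from 3117 to 1376. Without day 4 samples, the counts were 2419 (day 0), 2903 (day 2) and 5585 (week 3), and with no filter 894 (day 0). With only the compared groups, they were 5408 (day 2), 354 (day 4), 7426 (week 2) and, for week 4, 2491 against 6234. With 1 library left out, the lowest counts were 484 for day 0, then 930 (day 2), 3206 (day 4), 4909 (day 6), 3266 (week 2), 1658 (week 3) and 3256 (week 4).

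Same-numbered duodenum and ileum samples of an age had a mean correlation of deviations of 0.076 over 23 pairs (-0.147 to 0.452, 9 over 0.1). Differently numbered pairs had a mean of -0.0394. Deviations from a group mean cancel within the group, so this mean is tied to the same-numbered one and is not a separate comparison. Of 23 duodenum libraries, 15 correlated best with the ileum library of their own number. Whether samples of the same number share an animal could not be settled, and the main fit treated them as unpaired. The replicate block changed the Acadl interaction (adjusted p = 0.0964) and left the averaged regional calls at 8.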

Other observations

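The day 6 libraries numbered 3, left out above, had the following CPM. The library labelled duodenum had 162 for Bdh1, 180 for Acat1, 329 for Cpt1a, 54.8 for Cpt2, 66.5 for Acadm, 248 for Acadl, 74.9 for Ehhadh and 24.0 for Pdk4. The library labelled ileum had 229 for Bdh1, 443 for Acat1, 410 for Cpt1a, 93.3 for Cpt2, 90.0 for Acadm, 301 for Acadl, 100.1 for Ehhadh and 69.8 for Pdk4. All 8 genes were higher in the library labelled ileum, whereas the other day 6 libraries had 438 and 590 CPM of Acat1 in duodenum and 162 and 161 in ileum.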
